A study of Rattus norvegicus with 6 samples.

Results

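The proteasome genes were taken from the count table by symbol: every gene whose symbol reads Psm, a letter from a to g and a digit, apart from the inducible immunoproteasome subunits Psmb8, Psmb9 and Psmb10. The pattern found 47 of the 40456 genes in the table. Of these, 16 encode subunits of the 20S core particle, 17 encode subunits of the 19S regulatory particle, and 12 encode activators, an inhibitor and assembly factors. The other 2 share the pattern but encode no proteasome subunit: Psmc3ip, a cofactor of meiotic recombination, and Psme3ip1, a binding partner of the activator PA28 gamma. They are counted among the 47 and named apart. A single member, Psmb11, was not tested: its control replicates 1 to 3 held 2, 3 and 3 counts, and its Tug1 gapmer replicates held 5, 3 and 3. This subunit is known from the thymus.

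The cells were H9c2 (2-1), a line of rat cardiomyoblasts with a wild-type genotype by the labels, kept for 5 days in 1% serum with 1 µM retinoic acid to differentiate them. A group of 3 libraries came from cells given a negative control gapmer, and a group of 3 from cells given a gapmer that targets Tug1, a long non-coding RNA, each at 25 nM for 24 h. A gapmer is an antisense oligonucleotide with locked ends that makes RNase H cut its target RNA. All libraries came from the same cell line, and nothing in the labels says that replicates were separate cultures, so p-values measure the spread between these libraries only. The 2 oligonucleotides are shown because they are the only stated difference between the groups.
Tug1 gapmer: attcagtagacagcta
Negative control gapmer: gctcccttcaatccaa

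Libraries held 12978548 to 13544337 counts, and levels are given as CPM, counts scaled to library size, after TMM scaling for library composition. Tug1 was at 54.6, 51.9 and 55.3 CPM in control replicates 1 to 3 and at 11.9, 11.2 and 12.4 CPM in Tug1 gapmer replicates 1 to 3, with no overlap. The labels call the cells cardiomyocytes, but of 11 cardiomyocyte markers Myh6, Myh7, Nppb, Nkx2-5 and Ryr2 were at or under 3 counts in every library. All 11 summed to 408 to 438 CPM in control and 477 to 522 CPM in Tug1 gapmer libraries, most of it from Tnnt2. Of 4 tested cardiomyocyte markers 2 were called higher and 2 were not called. Skeletal myoblast markers summed to 406 to 413 CPM and 606 to 661 CPM, with 4 of 5 tested markers higher and 1 lower, and Myf5 at or under 3 counts in every library. Fibroblast markers summed to 21900 to 23200 CPM and 18200 to 20200 CPM, most of it from the collagen gene Col1a1, and of 3 tested markers 1 was higher and 2 were lower. The endothelial markers Pecam1, Cdh5 and Kdr and the leukocyte markers Ptprc and Adgre1 were at or under 3 counts throughout, and the remaining leukocyte marker, Cd68, was at 2.83 to 4.71 CPM in control and 6.37 to 8.64 CPM in Tug1 gapmer libraries. The part of these shifts in the proteasome results was not tested. In bulk RNA a change in the share of cells and a change per cell cannot be told apart.

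The proteasome degrades proteins tagged with ubiquitin. Its barrel-shaped core has outer rings of alpha subunits, which gate the entry, and inner rings of beta subunits, which cut the chain. The regulatory particle caps the barrel: its base holds a ring of ATPases that unfold the substrate, and its lid removes the ubiquitin. In muscle the system turns over sarcomere proteins and sets much of the pace of wasting. Cells short of proteasome activity raise its subunits as a group through the transcription factor NRF1 (gene Nfe2l1).

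Transcripts of the proteasome did not move in a single direction after Tug1 knockdown. Of 46 tested members, 31 (67.4%) were called by edgeR's quasi-likelihood test at an adjusted p under 0.05, with 11 higher and 20 lower. Among all 14216 tested genes 61.7% were called, 30.8% higher and 30.9% lower, so in this fit the members' share of called genes lay near that of the whole table. The 3 control and 3 Tug1 gapmer values did not overlap for 34 of 46 tested members, against 9323 of all 14216 tested genes (65.6%). Most changes were small: the median absolute log2 fold change was 0.20 over the members and 0.34 over all tested genes. Only Psmd1, Psme1, Psmd10, Psme2 and Psma5 moved by at least 0.5 (10.9% of tested members, 33.9% of all tested genes). Neither comparison of sizes was matched for expression level. The members' median log2 fold change was -0.07, against 0.00 for all tested genes. The balance of directions depended on the scaling. With library totals in place of TMM, which lifted the median of all genes by 0.06, 16 members were higher and 18 lower, and with an offset for gene length 17 were higher and 16 lower. The direction and call held in all 16 alternatives for 22 of the 46 members.

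**Figure D1:**
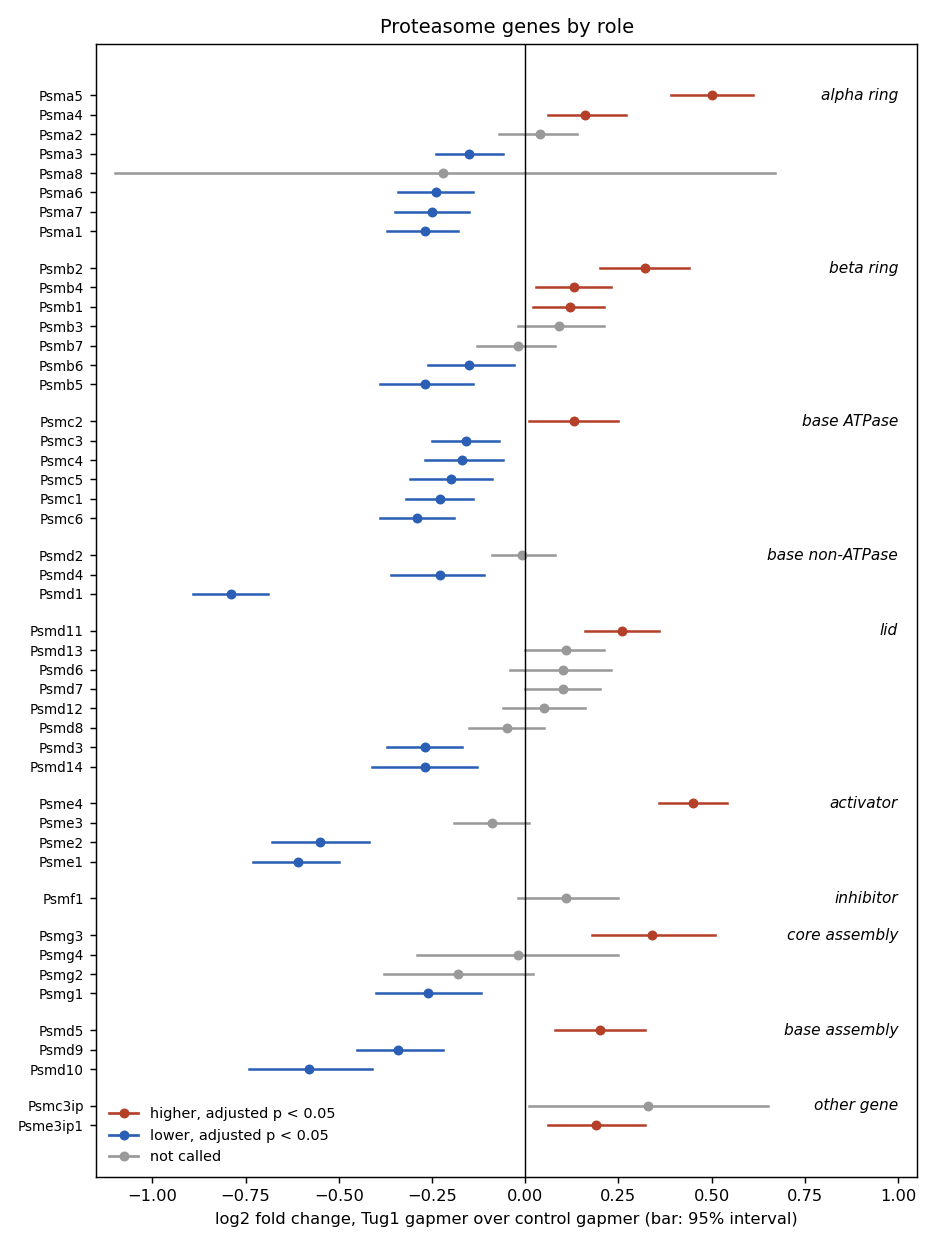
Log2 fold change of each tested member (horizontal axis, Tug1 gapmer over control gapmer) by role, with 95% intervals from edgeR's fit over 3 libraries per group and colours for called higher, called lower and not called. Psmd1 lies lowest at -0.79 and Psma5 highest at 0.50, and most of the others lie within 0.3 of zero.

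The alpha ring was split. Psma5, a ring subunit, rose most of all members. It was at 84.5, 81.8 and 88.4 CPM in control replicates 1 to 3 and at 122, 123 and 116 CPM in Tug1 gapmer replicates 1 to 3. Every knockdown library lay above every control library, and the means differed by 41.6% (log2 fold change 0.50, SE 0.0532, edgeR adjusted p 2.56e-08). Psma1 went the other way, with 216, 207 and 214 CPM in controls and 177, 175 and 175 CPM after knockdown. The groups again did not overlap (log2 fold change -0.27, SE 0.0454, edgeR adjusted p 1.74e-05). Psma7 (-0.25), Psma6 (-0.24) and Psma3 (-0.15) also fell, and Psma4, whose tail helps to close the gate, rose (0.16). Psma3 was not called with library totals (-0.10), and Psma4 lost its call without control replicate 1 (edgeR adjusted p 0.0679). Psma2 was at 0.04 and was not called (95% interval -0.07 to 0.14). Psma8, which replaces Psma7 in the testis, averaged 0.744 ± 0.177 CPM in control and 0.636 ± 0.321 CPM in Tug1 gapmer libraries (SD, n = 3), a level at which no difference was detectable. It overlaps Ss18 in the RefSeq gene table, a gene with 930 to 1137 counts per library, and use of strand in counting was not stated. In all, 2 of 8 alpha genes rose (25%) and 4 fell (50%), with a median log2 fold change of -0.18. Over all tested genes 30.8% were higher and 30.9% lower.

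The beta ring was split as well, and its catalytic subunits did not rise. Psmb5 carries the chymotrypsin-like site that most proteasome inhibitors block. It was at 141, 131 and 126 CPM in control replicates 1 to 3 and at 112, 118 and 101 CPM in Tug1 gapmer replicates 1 to 3. All knockdown values lay below all control values (log2 fold change -0.27, SE 0.0589, edgeR adjusted p 0.000445). With the length offset, Psmb5 was at -0.12 and was not called (edgeR adjusted p 0.0612). Psmb6, the caspase-like subunit, fell (-0.15, edgeR adjusted p 0.024). It lost its call without control replicate 2 (edgeR adjusted p 0.0753) or Tug1 gapmer replicate 3 (0.112) and with library totals (0.14), and changed sign with the length offset, to 0.05. Psmb7, the trypsin-like subunit, was at -0.02 and was not called (95% interval -0.13 to 0.08). The rises were in subunits without a catalytic site. Psmb2 was at 60.2, 56.5 and 56.9 CPM in controls and at 72.4, 72.9 and 71.2 CPM after knockdown. Its groups did not overlap (log2 fold change 0.32, SE 0.0562, edgeR adjusted p 3.56e-05). Psmb4 (0.13) and Psmb1 (0.12) rose by little, and both lost their calls without control replicate 1 (edgeR adjusted p 0.0769 for Psmb4 and 0.162 for Psmb1) and without Tug1 gapmer replicate 1 (0.053 and 0.15). Psmb1 also overlaps another gene, Tbp, with 168 to 205 counts per library. Psmb4 lost its call as well without Tug1 gapmer replicate 2 (edgeR adjusted p 0.072), and Psmb1 without control replicate 2 (0.0963). Psmb3 was at 0.09 and was not called (95% interval -0.02 to 0.21), but was called higher without Tug1 gapmer replicate 3 (0.15, edgeR adjusted p 0.0321). Of the 7 tested beta genes 3 rose (42.9%) and 2 fell (28.6%), with a median of 0.09, beside 30.8% higher and 30.9% lower over all tested genes.

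In the base of the regulatory particle 7 of 9 genes fell (77.8%), with 1 higher (11.1%) and a median of -0.20. Over all tested genes 30.9% were lower and 30.8% higher. The protein-folding chaperonin CCT, outside the proteasome, had 6 of 8 genes lower, 1 higher and a median of -0.21. Psmd1 encodes Rpn2, a large scaffold of the base, and fell furthest of all members. Its level was 277, 295 and 312 CPM in control replicates 1 to 3 and 172, 168 and 172 CPM in Tug1 gapmer replicates 1 to 3. The knockdown libraries lay close together and far below the lowest control, at 57.8% of the control mean (log2 fold change -0.79, SE 0.049, edgeR adjusted p 3.91e-12). Omitting single libraries moved it between -0.83 and -0.75. Psmd1 overlaps Htr2b in the RefSeq gene table, a receptor gene with 18 to 33 counts per library. Psmd2 encodes Rpn1, the other large scaffold and a docking site for ubiquitin-like domains. It was at 565, 599 and 586 CPM in controls and at 579, 579 and 582 CPM after knockdown. Here the groups overlapped, and the log2 fold change was -0.01 (95% interval -0.09 to 0.08, edgeR adjusted p 0.863). Psmd4 encodes the ubiquitin receptor Rpn10 and was at 57.6, 55.6 and 58.5 CPM, then at 50.5, 47.6 and 48.1 CPM. It fell without overlap (log2 fold change -0.23, SE 0.0598, edgeR adjusted p 0.00186).

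**Figure D2:**
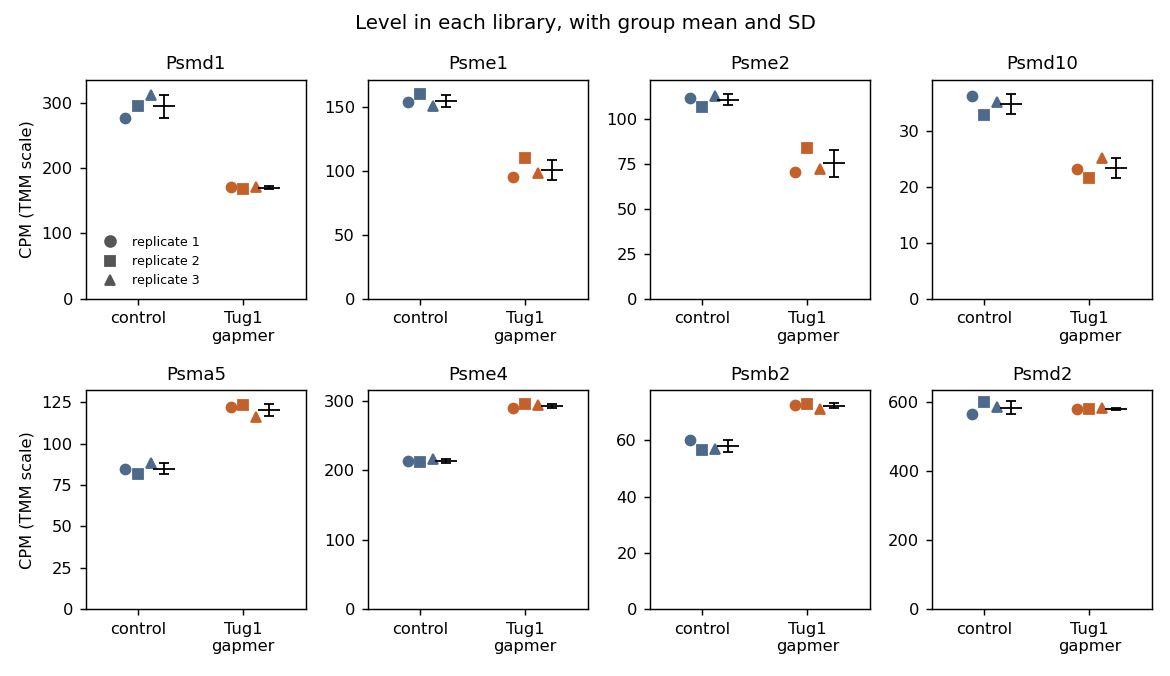
Level of 8 members in each library (vertical axis, CPM on the TMM scale, from 0), with replicates 1, 2 and 3 as circle, square and triangle and black bars for the group mean and SD. Psmd1, Psme1, Psme2 and Psmd10 lie lower in all 3 Tug1 gapmer libraries, Psma5, Psme4 and Psmb2 lie higher in all 3, and Psmd2 overlaps.

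The ATPase ring of the base held Psmc6, which fell from 189, 185 and 190 CPM to 159, 150 and 152 CPM (log2 fold change -0.29, SE 0.0471, edgeR adjusted p 1.22e-05). It also held Psmc1, which fell from 289, 284 and 287 CPM to 253, 234 and 245 CPM (-0.23, SE 0.0451, edgeR adjusted p 0.000115). In neither gene did the groups overlap. Psmc6 overlaps the gene Styx in the RefSeq table, which had 545 to 768 counts per library. Psmc5 (-0.20), Psmc4 (-0.17) and Psmc3 (-0.16) fell too. With the length offset these last 3 were between -0.08 and -0.03 and were no longer called, which left 2 of 6 ATPases and 4 of 9 base genes lower. Psmc2 was the only ATPase to pass as higher (0.13, edgeR adjusted p 0.0487). Its libraries overlapped, and it lost its call without control replicate 1 (edgeR adjusted p 0.253), control replicate 2 (0.199), Tug1 gapmer replicate 1 (0.187) or Tug1 gapmer replicate 2 (0.0514).

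The lid genes matched by symbol moved least, with 1 of 8 higher (12.5%), 2 lower (25%) and a median of 0.07. These shares stood beside 30.8% higher and 30.9% lower over all tested genes. With library totals 3 rose and 2 fell, and with the length offset 4 rose and 2 fell. The lid subunit gene Sem1, whose symbol misses the pattern, is not in these counts and fell (-0.39, edgeR adjusted p 5.15e-06). Psmd14 encodes Rpn11, the metalloprotease that cuts ubiquitin chains off the substrate. It was at 63.5, 59.1 and 72.2 CPM in controls and at 55.4, 54.8 and 51.3 CPM after knockdown. The groups did not overlap (log2 fold change -0.27, SE 0.0682, edgeR adjusted p 0.00149), and with the length offset the fall was larger (-0.45). The structural subunit gene Psmd3 fell from 186, 197 and 178 CPM to 152, 156 and 158 CPM, again without overlap (log2 fold change -0.27, SE 0.0495, edgeR adjusted p 6.03e-05). Psmd11 encodes Rpn6, a subunit that joins the lid to the core, and rose (0.26, SE 0.049, edgeR adjusted p 7.23e-05). Psmd13 (0.11), Psmd7 (0.10), Psmd6 (0.10), Psmd12 (0.05) and Psmd8 (-0.05) were not called. Psmd13 and Psmd7 were called higher without control replicate 3 (edgeR adjusted p 0.0218 and 0.0404), and Psmd7 also with the replicate number as a block (0.10, edgeR adjusted p 0.038).

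Core and regulatory particle were then set side by side. The core had 5 genes higher and 6 lower among 15 tested (73.3% called) and a median log2 fold change of -0.02. In the regulatory particle 2 were higher and 9 lower among 17 tested (64.7% called), with a median of -0.16. Over all tested genes 61.7% were called, with 30.8% higher and 30.9% lower. With library totals the core had 6 higher and 4 lower and the regulatory particle 4 and 9, and with the length offset these were 7 and 5, then 5 and 6. The 15 core genes summed to 2026, 1990 and 2037 CPM in control replicates 1 to 3 and to 2004, 1989 and 1920 CPM in Tug1 gapmer replicates 1 to 3. These sums overlapped between the groups. The 17 regulatory genes summed to 3209, 3225 and 3313 CPM in controls and to 3036, 2985 and 2967 CPM after knockdown, which did not overlap and put the knockdown mean at 92.2% of the control mean. Within the regulatory particle the base was at 87.7% of its control sum and the lid at 101%. Without Psmd1, an exclusion chosen after its value was seen, the regulatory sum was at 95.6% of control, still without overlap. The base sum, which also holds Psmd1, was not taken without it. These sums hold neither Sem1 nor Adrm1, whose symbols miss the pattern. The ratio of the core sum to the regulatory sum was 0.621 ± 0.00899 in controls and 0.658 ± 0.00989 after knockdown (SD, n = 3), higher in all 3 knockdown libraries. With the same exclusion of Psmd1 the ratio was 0.683 ± 0.00703 and 0.697 ± 0.00984 (SD, n = 3), and the groups overlapped. The median of the core lay above that of the regulatory particle by 0.142 on the log2 scale, by 0.084 without Psmd1, and by 0.08 with the length offset. The same difference of medians was 0.00, 0.03 and -0.03 in the 3 control libraries, by replicate number, against 0.18, 0.02 and 0.13 with the Tug1 gapmer, with a within-group SD of 0.0642. On this measure the groups overlapped, since Tug1 gapmer replicate 2 lay below control replicate 2. No test was made over the members of a particle.

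**Figure D3:**
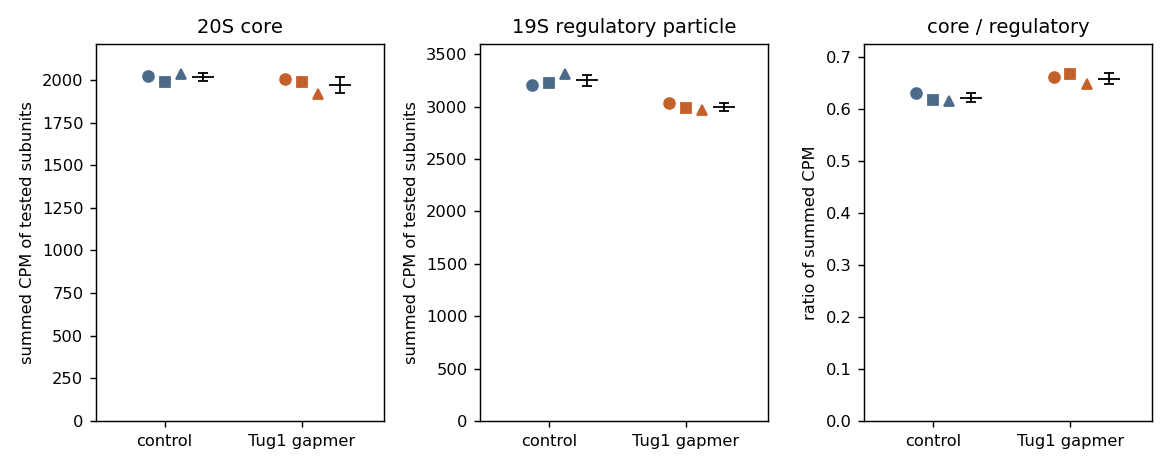
Summed level of the tested core subunits (left) and regulatory particle subunits (middle) in CPM, and the ratio of these sums (right), in each library, with replicates 1, 2 and 3 as circle, square and triangle and black bars for the group mean and SD. The core sums overlap between the groups, the regulatory sums lie lower in all 3 Tug1 gapmer libraries, and the ratio lies higher in all 3.

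Alternative caps of the core moved apart. Psme1 and Psme2 encode PA28 alpha and beta, which form a ring that opens the core without ATP and which interferon induces. Psme1 was at 154, 160 and 151 CPM in control replicates 1 to 3 and at 95.2, 110 and 98.8 CPM in Tug1 gapmer replicates 1 to 3. Psme2 was at 112, 107 and 113 CPM in controls and at 70.6, 84.2 and 72.1 CPM after knockdown. In both genes all knockdown libraries lay below all controls, and Tug1 gapmer replicate 2 was the highest of the 3. The log2 fold changes were -0.61 (SE 0.0559, edgeR adjusted p 2.28e-09) for Psme1 and -0.55 (SE 0.0619, edgeR adjusted p 6.5e-08) for Psme2, and without that library they were -0.67 and -0.63. The immunoproteasome subunits Psmb8, Psmb9 and Psmb10, which take the places of Psmb5, Psmb6 and Psmb7 under interferon, were lower as well, at -1.37, -0.38 and -0.26 (edgeR adjusted p 8.88e-07, 0.000328 and 0.00308). Tug1 gapmer replicate 2 was again the highest knockdown library for each of them, for example 2.95 CPM of Psmb8 against 2.39 and 2.34 CPM in the other two. Psmb10 was not called with the length offset (-0.07, edgeR adjusted p 0.383).

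Psme4 encodes PA200, a large nuclear cap of the core, and rose. It was at 213, 212 and 217 CPM in control replicates 1 to 3 and at 290, 295 and 294 CPM in Tug1 gapmer replicates 1 to 3. The groups were far apart relative to their spread (log2 fold change 0.45, SE 0.0436, edgeR adjusted p 5.59e-09). It is the longest member by genomic span, and with the length offset its log2 fold change was 0.25 (edgeR adjusted p 1.29e-05). Psme3, which encodes the nuclear PA28 gamma, was at -0.09 and was not called (95% interval -0.19 to 0.01), and its partner Psme3ip1 was higher (0.19, edgeR adjusted p 0.00985). Psme3ip1 overlaps Rspry1 in the RefSeq gene table, a gene with 331 to 399 counts per library. Psmf1 encodes PI31, which inhibits the core in the test tube, and was at 0.11 without a call (95% interval -0.02 to 0.25), although it passed with library totals (0.16, edgeR adjusted p 0.0351). Psmc3ip was at 0.33 without a call (edgeR adjusted p 0.0687), passed without Tug1 gapmer replicate 1 (0.41, 0.0449), and overlaps the more abundant gene Mlx.

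Assembly factors differed among themselves. Psmd10 encodes gankyrin, a chaperone of the base, and was at 36.4, 33.0 and 35.3 CPM in controls and 23.3, 21.6 and 25.3 CPM after knockdown. Its groups did not overlap (log2 fold change -0.58, SE 0.0792, edgeR adjusted p 1.29e-06). Psmd9, also a base chaperone, fell from 76.5, 77.5 and 82.4 CPM to 63.6, 62.2 and 61.4 CPM (-0.34, SE 0.056, edgeR adjusted p 1.74e-05). Psmd5, the remaining base chaperone, rose (0.20, edgeR adjusted p 0.00343). Among the chaperones of the core, which build the alpha ring, Psmg1 fell (-0.26, edgeR adjusted p 0.00191), while its partner Psmg2 was at -0.18 and was not called (95% interval -0.38 to 0.02), but passed without Tug1 gapmer replicate 2 (-0.26, edgeR adjusted p 0.0386). Psmg3 rose from 29.5, 24.6 and 28.3 CPM to 34.7, 37.1 and 32.9 CPM (0.34, SE 0.0806, edgeR adjusted p 0.00076), and with the length offset by 0.53. Its partner Psmg4 was at -0.02 (95% interval -0.29 to 0.25) and was not called.

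Genes that work on the proteasome without carrying its symbol were compared next. Of 13 proteasome-associated genes on the list 12 were tested, with 3 higher (25%), 4 lower (33.3%) and a median of -0.07. Over all tested genes 30.8% were higher and 30.9% lower. Pomp, a maturation factor that helps core assembly intermediates join, fell from 159, 152 and 154 CPM to 132, 127 and 117 CPM (log2 fold change -0.31, edgeR adjusted p 2.23e-05). Sem1, the smallest lid subunit, fell as well (-0.39, edgeR adjusted p 5.15e-06), while the ubiquitin receptor Adrm1 was at -0.06 and was not called. The deubiquitinases that the proteasome recruits, Usp14 (-0.30, edgeR adjusted p 3.38e-05) and Uchl5 (-0.32, edgeR adjusted p 0.00439), both fell, as did the intrinsic enzyme Psmd14. Usp14 and Uchl5 did not overlap between the groups, although the gap for Uchl5 was narrow, with the lowest control at 21.7 CPM and the highest knockdown library at 21.1 CPM. Zfand5, a proteasome activator in muscle atrophy, rose from 169, 171 and 172 CPM to 254, 229 and 239 CPM (0.50, edgeR adjusted p 6.74e-09), and the ligase Ube3c rose by 0.38.

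Among genes that control transcription of proteasome genes, 9 of 16 tested rose and 3 fell, with a median of 0.17, beside 30.8% higher, 30.9% lower and a median of 0.00 over all tested genes. The list mixes genes that activate NRF1 or NRF2 with genes that restrain them, and no test was made over it. With the length offset 7 rose and 2 fell. Nfe2l1 was at 720, 732 and 739 CPM in controls and at 821, 845 and 836 CPM after knockdown, without overlap (log2 fold change 0.19, edgeR adjusted p 0.000257). Ddi2, the protease that cuts the NRF1 protein into its active form, rose from 68.0, 72.1 and 67.9 CPM to 94.8, 96.9 and 97.6 CPM (0.48, edgeR adjusted p 7.27e-08). Nploc4, a cofactor of the extraction enzyme p97, rose by 0.45, while Vcp, which encodes p97 itself, was at -0.01 and was not called. Genes of the restraining side went both ways. Keap1, which holds NRF2 for degradation, rose by 0.26, and Sel1l, of the ligase complex that clears NRF1 at the reticulum, by 0.34. Syvn1, the ligase of that complex, fell (-0.20), but was not called with the length offset (-0.10, edgeR adjusted p 0.143) or without Tug1 gapmer replicate 1 (-0.14, 0.0606). Btrc, a ubiquitin ligase subunit, rose by 0.22, but was not called without control replicate 2 (0.16, edgeR adjusted p 0.0596) and changed sign with the length offset, to -0.06. Nfe2l2, the related antioxidant factor NRF2, rose by 0.16. The small Maf partners on the list went both ways: Mafg rose (0.19), while Mafk (-0.34) and Maff (-0.43) fell. Transcript levels say nothing of the cutting and transport of the NRF1 protein, which were not measured.

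On the list of ubiquitin supply and shuttle genes, 5 of 16 tested rose and 5 fell (31.2% each), with a median of 0.01. These shares lay near the 30.8% higher and 30.9% lower of all tested genes. Ubqln2, a shuttle that carries ubiquitin chains to the proteasome, fell from 206, 204 and 191 CPM to 135, 129 and 142 CPM, without overlap (log2 fold change -0.57, edgeR adjusted p 1.61e-09). Sqstm1, an autophagy receptor for ubiquitin that NRF2 is known to control, rose (0.64, edgeR adjusted p 7.26e-11). The ubiquitin fusion gene Rps27a fell by 0.44 on the log2 scale, and it also encodes a ribosomal protein. The polyubiquitin gene Ubb was at 0.05 and was not called (95% interval -0.04 to 0.14), but was called higher with library totals (0.10, edgeR adjusted p 0.0496) and with the length offset (0.27, 4.13e-06).

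Promoters were searched for the antioxidant response element, the sequence to which NRF1 and NRF2 bind with a small Maf partner. RefSeq promoter windows of the rat assembly GRCr8 were found for 42 members, and the 250 bases before each transcript start were read on both strands. The element's core, TGACNNNGC, was present in 7 of 42 windows (16.7%), against 10.1% of all 33469 windows. It was present in 4 of 14 core windows and in 1 of 14 regulatory windows. Of the 7 members with a match, Psmb2 and Psme4 were called higher, and Psma3, Psmb5, Psmb6, Psmd1 and Psmd9 were called lower. The stricter form TGACTCAGC, a case of the same core, was in 0 of 42 member windows and in 0.376% of all windows. The CCAAT box, read as CCAAT, was in 21 of 42 (50.0%), against 34.0% of all windows, and shared 1 base with the element core in Psmb2. For each motif a member entered with a single window, while the background was every window, whether or not its gene was tested. The 4 stretches shown are those of both members that rose, Psmb2 and Psme4, and of 2 of the 5 that fell, Psmb5 and Psmd1, chosen with their values known, with the match in capitals and each sequence in the direction of transcription. In Psme4 the match is on the opposite strand.
Psmb2, chr5:144254965-144255023, plus strand: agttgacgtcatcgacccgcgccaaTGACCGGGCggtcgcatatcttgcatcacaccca
Psme4, chr14:108706563-108706621, plus strand: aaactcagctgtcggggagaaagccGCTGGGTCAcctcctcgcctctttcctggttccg
Psmb5, chr15:32047406-32047464, minus strand: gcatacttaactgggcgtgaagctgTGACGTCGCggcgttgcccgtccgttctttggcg
Psmd1, chr9:94157781-94157839, plus strand: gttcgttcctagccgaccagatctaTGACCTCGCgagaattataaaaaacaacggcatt

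The matches shown started 68, 55, 60 and 165 bases before the transcript start in Psmb2, Psme4, Psmb5 and Psmd1. Psma5, which rose most, had no match to the element core in its window. A match is letters only and was not tested for binding.

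Gene length moved with the fold changes, so it was set beside them. Members ranged in genomic span from 920 bp for Psmb11 to 103688 bp for Psme4, and Psmd14 (92734 bp) and Psmd1 (75248 bp) came next in length. These long genes went in opposite directions: Psme4 rose, and Psmd14 and Psmd1 fell. With an offset that removed from each library its trend on span, the regulatory median was -0.03 in place of -0.16 and the core median 0.05 in place of -0.02. Psmc3, Psmc4, Psmc5, Psmb5 and Psmb6, with spans of 2367 to 8579 bp, lost their calls. Psmd13, Psmd7, Psmd6, Psma2, Psmb3 and Psmc3ip were then called higher and Psmb7 lower. Psmd1 (-0.94), Psme1 (-0.43), Psme2 (-0.40), Psmd10 (-0.48) and Psma5 (0.51) kept direction and call. Whether span itself or a trait that goes with it underlies the trend was not tested.

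**Figure D4:**
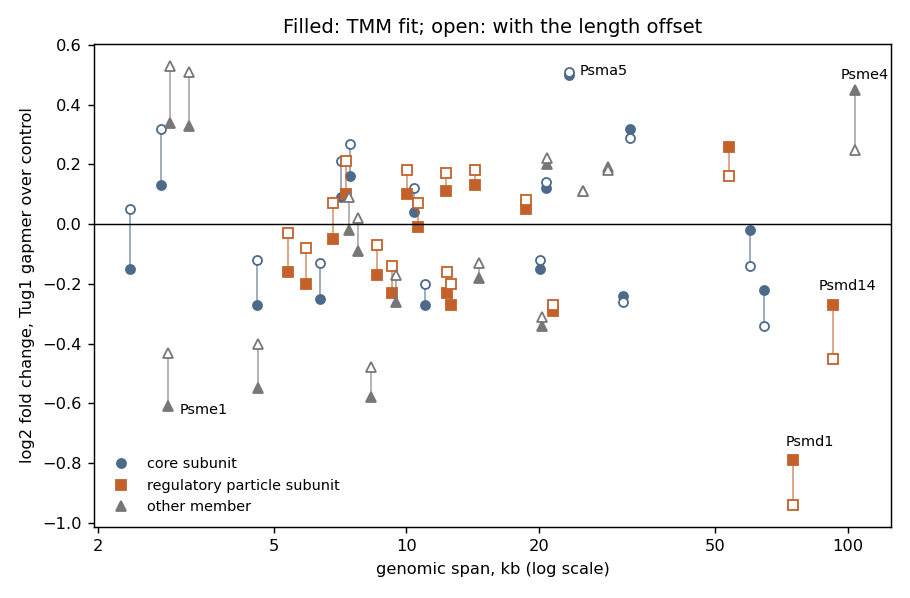
Log2 fold change of each tested member (vertical axis) against genomic span in kb on a log scale (horizontal axis), from the TMM fit (filled) and with the length offset (open), joined by a line. The shortest members move up and the longest move down with the offset, and Psmd1 stays lowest at -0.94.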

How the data were processed

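The authors deposited whole-number read counts per gene symbol for 6 libraries, unscaled and with replicates apart, as the values showed. The submitters' processing notes name FastQC 0.11.7, fastp 0.14.1 and STAR 2.5. Counting tool, build, annotation and handling of strand or shared reads were not given in the sources used here. Libraries were stranded and poly-A selected, per the labels' protocols.

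With edgeR 4.0.16 in R 4.3.3, counts were filtered (minimum count 10, total 15), scaled by TMM and tested on all 6 libraries (quasi-likelihood, two-sided, prior count 0.125, no block), with Benjamini-Hochberg adjustment over the 14216 tested genes. Fold changes compare the Tug1 gapmer with the control gapmer on the log2 scale. The detection limit of 3 counts was 0.217 to 0.232 CPM and covers counting error only.

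Members and lists (proteasome-associated, immunoproteasome, control of proteasome gene transcription, ubiquitin supply and shuttles, muscle ubiquitin ligases, COP9 signalosome, chaperonin CCT, markers) were chosen with earlier results of these data known. The naming rule took the 2 called members with the largest change in each role, a fixed set of genes, and from each list the 4 called genes with the smallest p, of which a part is named. A few list genes are counted but not reported here. Psme4, Psmd2, Psmd9, Ubb, Vcp, Trim63, Keap1, Btrc, Syvn1, Mafg and Mafk were singled out after their values were seen. Of 52 copies of member genes in the RefSeq table (GRCr8), 43 were in the deposited table, 27 of them at 0 and the highest at 16 counts.

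Alternatives were DESeq2 size factors, library totals, the Wald test of DESeq2 1.42.0, limma-voom (limma 3.58.1), no filter, a filter at 1 CPM, a stricter adjusted p (0.01), a replicate block, a lowess offset on genomic span (span 0.3) with and without that block, and omission of each library. Transcript lengths were not used, so levels are not compared between genes. The edgeR fit with the main settings was run on simulated counts, and the alternative fits were not. The simulation changed a small set of genes, as many up as down. It therefore does not test the fit or the scaling under changes as widespread as here, where 61.7% of tested genes were called.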

Additional observations from a re-analysis of the deposited data

How the results depend on the processing

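Tug1 was lower in all 16 alternatives, from -2.22 to -2.07. Called members numbered 27 to 34 over the alternatives, 27 to 33 on omission of single libraries and 30 without Psmc3ip and Psme3ip1. The share of members called lay above that of all tested genes in each alternative, by differing amounts. The shares were 58.7% against 56% without control replicate 1, 73.9% against 61.9% with library totals, and 59.6% against 34.5% with no filter. Core counts ran from 8 to 13 and regulatory counts from 10 to 13. DESeq2's Wald test called 29 members and limma-voom 31, all among the 31 reported and in the same direction. The median difference between core and regulatory particle ran from 0.08 to 0.181. The stricter element gave 0 promoter matches in place of 7. Of 735 combinations of member and alternative, 32 lost a call without a change of sign, 25 gained 1 and 19 changed sign. Psmb6, called lower, was at 0.0505 with the length offset and 0.0506 with the offset and block. In both it also lost its call (edgeR adjusted p 0.404 and 0.405). The other member sign changes were in genes not called. With the offset, then with offset and block, Psmd2 was at 0.0703 and 0.0706, Psmd8 at 0.0665 and 0.0673, Psme3 at 0.0175 and 0.0176, and Psmg4 at 0.0877 and 0.0913. With library totals Psmb7 was at 0.032, Psmd2 at 0.0437, Psmd8 at 0.00486 and Psmg4 at 0.0308. Without single libraries Psmb7 ran from -0.05 to 0.00824 (0.00797 without control replicate 3, 0.00824 without Tug1 gapmer replicate 2), Psmd2 from -0.03 to 0.00823 (without control replicate 2), Psmg4 from -0.09 to 0.118 (without control replicate 1), and Psma8 from -0.61 to 0.113 (without Tug1 gapmer replicate 3). Outside the members, with the offset, then with offset and block, Btrc (called higher) was at -0.0646 and -0.0638, and of genes not called Adrm1 was at 0.0831 and 0.083, Vcp at 0.0254 and 0.0258, and Trim63 at 0.00166 and 0.00267. Vcp was also at 0.0472 with library totals and ran from -0.02 to 0.0222 without single libraries, above 0 without control replicate 3 (0.0222), Tug1 gapmer replicate 2 (0.00268) or Tug1 gapmer replicate 3 (0.000473). The cause was not tested. Depth limits Psma8 and Psmb11, both under 1 CPM.

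The replicate numbers could not be taken as pairs: deviations of same-numbered libraries from their group means correlated at -0.00531, 0.0298 and 0.027 across genes, and 2 of 3 numbers correlated best with their own. With the replicate block 32 members were called, all 31 plus Psmd7, and 8848 genes in all.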

Other observations

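Related machines were also read from lists. The COP9 signalosome is built on the same plan as the proteasome lid and removes the ubiquitin-like protein NEDD8 from ligases. Of its 10 genes 2 rose and 4 fell (median log2 fold change -0.05). Cops2 fell most (-0.58, edgeR adjusted p 1.4e-09), Cops5, the metalloprotease and counterpart of Psmd14, fell by 0.42 on the log2 scale (edgeR adjusted p 1.3e-06), and Gps1 rose (0.28, edgeR adjusted p 0.000205). The chaperonin CCT folds actin and tubulin in a ring of 8 different subunits, of which 6 fell and 1 rose (median -0.21). Its subunits also moved apart: Tcp1 fell from 232 ± 5.72 to 165 ± 1.28 CPM (-0.49), while Cct8 rose from 211 ± 5.75 to 313 ± 7.3 CPM (0.57, edgeR adjusted p 2.12e-10; SD, n = 3 for each). Over all tested genes 30.8% were called higher and 30.9% lower, and no test was made over either list.

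Among ubiquitin ligases known from muscle wasting, 4 of 11 tested rose and 4 fell (36.4% each, median -0.06), beside 30.8% and 30.9% of all tested genes. With the length offset 2 rose and 3 fell. Fbxo32, which encodes atrogin-1, rose (0.48, edgeR adjusted p 2.92e-05), and Trim63, which encodes MuRF1, was at -0.06 and was not called (edgeR adjusted p 0.343). The mitochondrial ligase Mul1 rose by 0.75 (edgeR adjusted p 1.82e-07).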
